A study of Rattus norvegicus with 11 samples.

Results

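The histone genes of the deposited table were taken as the rows whose description opens with histone cluster, histone H or H2A histone, or whose symbol opens with Hist1h, Hist2h or Hist3h, and were selected on having at least 50 counts summed over the 11 samples. This chose 58 of the 62 rows so named, among the 32623 genes listed and the 15968 that reached the same count. By name, 48 were replication-dependent histones (6 of H1, 14 of H2A, 12 of H2B, 5 of H3 and 11 of H4) and 8 were variant histones, of which 7 were of H2A and 1 of H4. Hist1h2ail1 stands under H2A by its name, but RefSeq gives H3 histone among its synonyms and its gene model has 411 bases, as all 5 models named as H3 do, against 393 in 11 of the other 13 named as H2A. The bases from the ATG near the end of its RefSeq promoter window translate to MARTKQTARKS, the start of an H3 protein. It is therefore counted under H2A by name only. The other 2 rows, Haspin and Hinfp, code for a kinase of histone H3 and a transcription factor of histone H4 genes and were kept apart from both classes. The sum of counts decided membership, so the members nearest to the threshold are given as a description: Hist1h1t (64 counts) and LOC100912489 (69 counts) lay just inside, and Hist1h2ao (15 counts) and Hist1h2ba (0 counts) outside.

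The samples were WBCs, the white blood cells of peripheral blood after lysis of the red cells, from male Wistar rats that were 7 weeks old at the start. In collagen-induced arthritis (CIA) a rat is immunized with type II collagen in incomplete Freund's adjuvant, here with a booster on day 7. The same 4 CIA rats were sampled at Nampt++ status, on about day 8 when the authors' PCR found Nampt overexpressed, and at Nampt+ status, on about day 14 when it had come back to the level of healthy rats. The 3 Control samples came from healthy rats, and the comparisons of both CIA groups with them therefore share samples. Status and day of disease changed together in the CIA rats and cannot be told apart.

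Histones are the proteins around which DNA is wound. H2A, H2B, H3 and H4 form the core of the nucleosome, and H1 binds the DNA between cores. Replication-dependent histone genes lie in clusters, are switched on in S phase, and give mRNAs that end in a stem-loop in place of a poly(A) tail, whereas variant genes are transcribed throughout the cell cycle into polyadenylated mRNAs and replace core histones at particular sites. Some replication-dependent genes also give polyadenylated transcripts in cells that have left the cycle. The libraries were made from poly(A) RNA, so what was measured for the replication-dependent class is the RNA that this selection kept.

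The labels' extraction protocol speaks of retinas, against the labelled source. FPKM, a level scaled to transcript length and library size, lay between 122 and 280 for Ptprc, the common leukocyte antigen, while the photoreceptor genes Rcvrn and Crx were listed at 0 in every sample. Total counts per sample ranged from 65340027 to 85819418. The 11 haemoglobin genes took between 6.84% and 42.8% of the counts. Nampt itself overlapped between the groups, at 46.5, 10.1, 36.1 and 30.6 FPKM at Nampt++ in rats 1 to 4, at 11.4, 14.3, 27.5 and 36.9 at Nampt+, and at 20.3, 32.9 and 13.5 in Control samples. The 58 members took between 0.0780% and 0.116% of the counts, and 37 of the 48 replication-dependent genes had under 100 reads in the median sample, so counting error is part of their spread.

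The promoters of H1 genes that the comparisons turn on, and of the most abundant variant, are shown because the classes are known for different control elements. A window around the transcript start was found in RefSeq (GRCr8) for 32 of the 56 histone members, matched by symbol on the same chromosome. The build of the deposited table is not given in the sources used here, so its positions are not mixed with those of GRCr8. Capitals mark 4 motifs on either strand. They are the H1 box of H1 promoters (AAACACA), the box bound by NF-Y (CCAAT), the TATA box (TATAAA) and the octamer of H2B promoters (ATTTGCAT), and no letters were shared between motifs in the windows printed. These are Hist1h1c (chr17:41820404-41820703, minus strand), Hist1h1e (chr17:41914175-41914474, plus strand), Hist1h1b (chr17:47421625-47421924, plus strand) and H2afz (chr2:229028845-229029144, plus strand), 5′ to 3′.
Hist1h1c: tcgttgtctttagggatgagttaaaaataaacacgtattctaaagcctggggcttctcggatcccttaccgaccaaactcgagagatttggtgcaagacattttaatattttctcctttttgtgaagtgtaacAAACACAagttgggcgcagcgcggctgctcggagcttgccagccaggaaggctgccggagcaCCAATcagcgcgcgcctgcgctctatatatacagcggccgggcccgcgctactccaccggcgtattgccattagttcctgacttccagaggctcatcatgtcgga
Hist1h1e: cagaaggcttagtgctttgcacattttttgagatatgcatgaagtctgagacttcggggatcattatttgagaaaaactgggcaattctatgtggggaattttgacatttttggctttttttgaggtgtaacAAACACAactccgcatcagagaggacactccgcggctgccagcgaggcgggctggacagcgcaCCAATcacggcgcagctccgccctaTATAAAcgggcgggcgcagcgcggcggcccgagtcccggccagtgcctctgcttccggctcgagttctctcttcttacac
Hist1h1b: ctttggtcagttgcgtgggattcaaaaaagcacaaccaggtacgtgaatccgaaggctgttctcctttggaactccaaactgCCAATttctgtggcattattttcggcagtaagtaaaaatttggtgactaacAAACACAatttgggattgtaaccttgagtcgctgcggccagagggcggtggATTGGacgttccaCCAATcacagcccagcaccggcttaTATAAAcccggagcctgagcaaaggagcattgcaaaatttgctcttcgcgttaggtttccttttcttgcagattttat
H2afz: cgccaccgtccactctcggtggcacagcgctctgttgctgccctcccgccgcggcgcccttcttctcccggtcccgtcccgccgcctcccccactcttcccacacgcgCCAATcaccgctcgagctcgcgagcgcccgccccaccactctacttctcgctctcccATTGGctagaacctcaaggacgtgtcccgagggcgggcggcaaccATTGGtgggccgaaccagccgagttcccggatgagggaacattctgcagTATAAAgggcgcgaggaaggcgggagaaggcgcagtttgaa

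The H1 box began 117 bases before the start in Hist1h1c and Hist1h1b and 118 bases before it in Hist1h1e, and the CCAAT box nearest to the start lay 55, 53 and 55 bases before it. The H1 box was in 5 of the 6 H1 windows, whereas 6.99% of all 33469 RefSeq windows held the same letters. Among the other members 2 of the 12 windows named as H2A held them, those of Hist1h2ac and Hist1h2aa. CCAAT was in 26 of the 27 replication-dependent windows (37.5% of all windows), TATAAA in 18 (14.2%) and the octamer in 9, namely 5 of the 8 H2B windows and 4 of the 12 named as H2A, or of 11 without Hist1h2ail1 (1.78%). Among the 5 variant windows 3 held CCAAT, 1 held TATAAA, and neither of the other motifs was found. Letters were counted anywhere in a window, so not every TATAAA lies where a TATA box would. That of H2afz is listed at -9 bases before the start, which is after it. TATAAA or its reverse began 232, 236, 217 and 118 bases before the start in Hist1h2af, Hist1h2bo, Hist1h2bk and Hist1h2ac, against 30 and 28 in Hist1h1e and Hist1h1b. Windows are not independent, since 3 H2A and H2B pairs on opposite strands share between 241 and 275 bases of theirs. The pair of LOC100910554 and Hist1h2bcl1 is uncertain, since the match by symbol may have taken another gene's window. Hist1h2bcl1 is listed between Hist1h1t and Hist1h1e, whose windows lie from 41855911 and from 41914175, while its own lies from 47392300. Hist1h4m, listed just before Hist1h1t, has a window from 47393514 and was the replication-dependent window without CCAAT. The counts above include both windows. Hist1h1d was matched under its older symbol to a record now named H4f3, and no member named as H3 could be matched to a single record.

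Few histone genes carried most of the signal. Hist1h1c, a linker histone of somatic cells, averaged 256 FPKM over the 11 samples and made up 96.0% of the summed H1 level, and Hist1h2bcl1, an H2B gene, averaged 194 and made up 85.7% of the H2B level. The pair held 69.5% of the summed level of 648 FPKM of the replication-dependent class. An H4 gene listed as LOC100912564 (ENSRNOG00000054017) followed at 54.4 FPKM, then the H2A genes Hist2h2aa2 at 27.8 and Hist2h2aa3 at 23.6, and the H2B gene Hist3h2ba at 17.6. Only 8 of the 48 averaged 5 FPKM or more, 27 lay from 1 up to 5, and 13 were under 1.

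Replication-dependent H3 genes were the lowest class in sum, at 8.45 FPKM, led by LOC102549173 at 3.06 and Hist2h3c2 at 2.51. H3f3a and H3f3b, which code for the replacement variant H3.3 and are not members by their names, summed to 2290 FPKM. The 8 variants had a median of 36.0 FPKM and summed to 498. H2afz, the gene of H2A.Z, led them at 239 FPKM, followed by H2afy (macroH2A1) at 104 and by LOC103690002 and H2afj, both named as H2A.J, at 64.5 and 53.5. H2afx, whose product is phosphorylated at DNA breaks, and H2afv, a further H2A.Z gene, averaged 18.6 and 18.2. H2afy2 (macroH2A2) and RGD1562378 (H4 variant) were near the limit of detection, at 0.160 and 0.349.

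**Figure D1:**
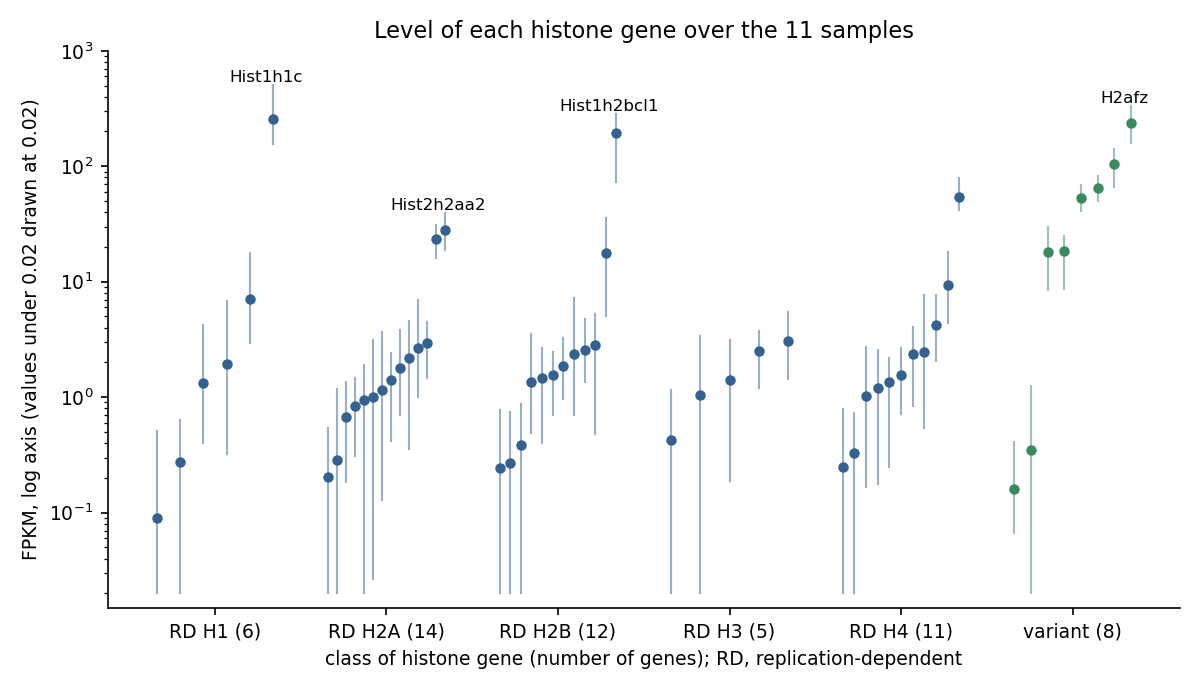
FPKM of each of the 56 histone genes on a log axis, by class, with the mean over the 11 samples as a point and the lowest to highest sample as a line; genes are ordered by mean within a class. Hist1h1c at 256 and Hist1h2bcl1 at 194 stand far above the other H1 and H2B genes, while 6 of the 8 variants lie between 18.2 and 239.

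Of the replication-dependent gene models, 36 were at most 420 bases long, and 34 of these had a length that is a multiple of 3, as for a coding sequence without untranslated ends. Their median level was 1.41 FPKM, against 2.15 for the 12 longer models, which included Hist1h1c, Hist1h2bcl1 and the leading LOC100912564 gene. Hist1h2bcl1 spanned 9387 bases (chromosome 17, 43679925 to 43689311, as the table lists it) and the leading LOC100912564 gene 4444. How reads were shared out among near-identical genes is not given in the sources used here. This touches the 11 members that share a symbol with another member, and 21 members that overlap another listed gene, and their values are uncertain to that extent. The ratio of H2afj to LOC103690002 stayed between 0.819 and 0.838 in all 11 samples, so the H2A.J rows hardly varied apart from each other.

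The comparison of Nampt+ with Nampt++ samples asks what differed in the same rats between the days on which the authors' PCR gave these statuses. In FPKM, Nampt was lower at Nampt+ in rats 1 and 3 and higher in rats 2 and 4. Replication-dependent histone genes were on balance higher at Nampt+ status and variants were not. The median fitted log2 fold change was 0.51 over the 48 replication-dependent genes, 36 of which were above 0, against -0.05 over the 8 variants and -0.02 over all genes tested, of which 47.9% were above 0. With limma on log2(FPKM + 1) the replication-dependent median was 0.22. By the study's thresholds (an unadjusted p under 0.05 and mean FPKM more than 2 times as high, or less than 0.5 times), 4 replication-dependent genes were higher, namely Hist1h1e, Hist1h1b, Hist1h3b and an H4 gene, and none was lower. Over all genes 1.26% passed, 0.582% higher and 0.676% lower. All 4 averaged under 10 FPKM in both groups, a level at which the study's methods did not rely on differences. None of the 4 had an adjusted p under 0.05 (edgeR's quasi-likelihood test, Benjamini-Hochberg adjusted p of 1.0 for each), nor did any member by DESeq2 or limma. DESeq2 and limma put 7 members each at an unadjusted p under 0.05, where edgeR put the 4 and 2.42% of all genes. The share of all genes by DESeq2 or limma is not given here, so their counts cannot be set against a background. The 7 by DESeq2 included the 4 and were all higher. The 7 by limma included neither Hist1h1e nor Hist1h1b, and the H4 gene LOC102548682 among them was lower (-0.34 on log2(FPKM + 1)). Fewer cells of a type that makes replication-dependent histone RNAs and less RNA per cell cannot be told apart in such samples.

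The direction rested on some rats more than on others. Nampt+ exceeded Nampt++ in 37 of 48 replication-dependent genes in rat 1, in 38 in rat 2, in 18 in rat 3 and in 33 in rat 4, on log2(CPM + 1), CPM being the count scaled to library size. The median differences of the class on this scale were 0.24, 0.44, -0.13 and 0.16 in rats 1 to 4. Over all genes the share that was higher was 50.8%, 47.1%, 47.7% and 50.7%. The count of 4 members past the thresholds was 0 without rat 4 at Nampt+ or rat 2 at Nampt++, 1 without rat 2 at Nampt+ or rat 1 at Nampt++, 2 without rat 3 at Nampt++, and 7 without rat 3 at Nampt+. The share of all genes past the thresholds in these fits is not given here. The median of the class lay between 0.32, without rat 2 at Nampt+, and 0.77, without rat 3 at Nampt+. In FPKM, 8 of the 48 replication-dependent genes (16.7%) were higher at Nampt+ in 4 of 4 rats, where 1.99% of all genes were.

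**Figure D2:**
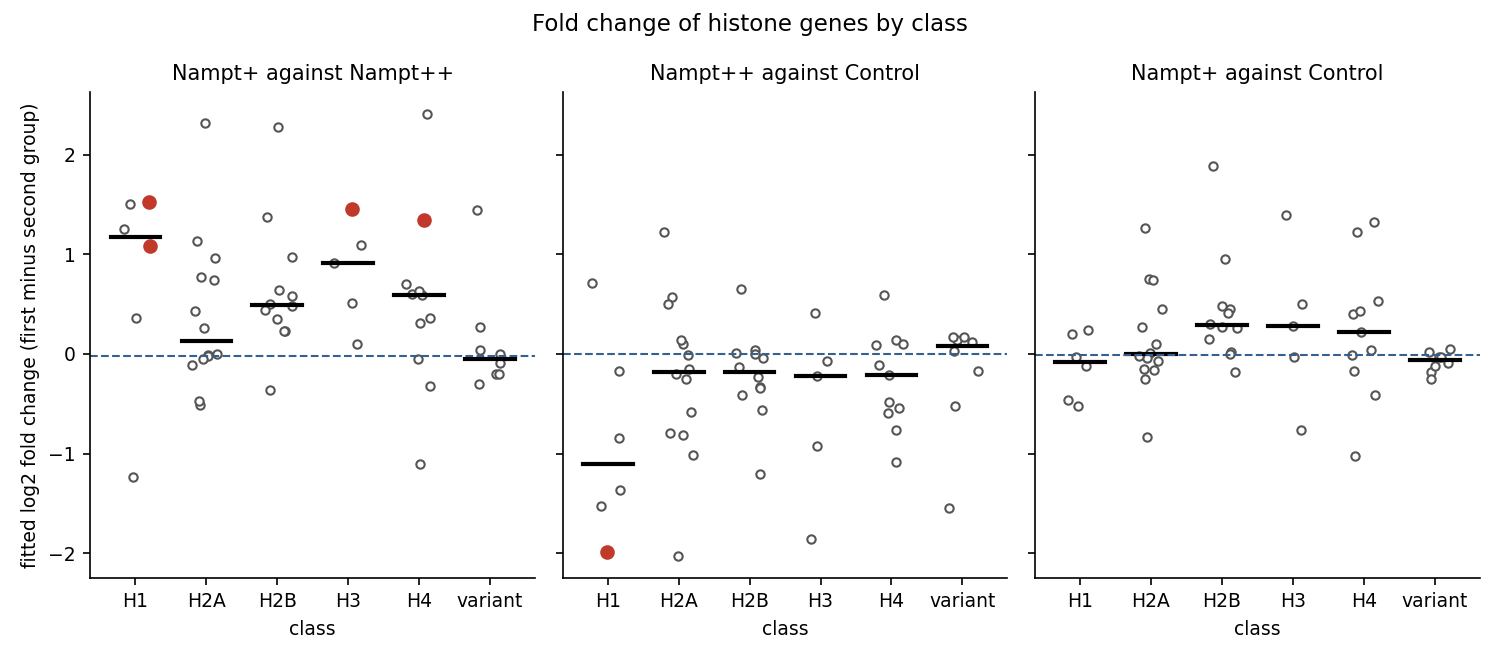
Fitted log2 fold change of each histone gene in the 3 comparisons, by class (H1 to H4, replication-dependent), with genes past the thresholds as filled red points, the class median as a bar and the median of all genes tested as a dashed line. In Nampt+ against Nampt++ the medians of H1 and H3 lie at 1.17 and 0.91 and that of the variants at -0.05, and in Nampt++ against Control the H1 median lies at -1.11.

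H1 genes had a median of 1.17, with 5 of 6 above 0, while Hist1h1c, which made up 96.0% of the H1 level, had a log2 fold change of 0.36. Hist1h1e, a linker histone of somatic cells (chromosome 17, 43734461 to 43735120), stood at 3.03, 3.37, 5.09 and 6.20 FPKM in rats 1 to 4 at Nampt++ and at 8.45, 4.90, 6.38 and 17.7 in their Nampt+ samples. It was higher in 4 of 4 rats, most so in rat 4, while the ranges of the groups overlapped. Its fitted log2 fold change was 1.09 (SE 0.36, p = 0.0135, adjusted p = 1.0, edgeR), and the difference in mean log2(FPKM + 1) was 0.83 (two-sided exact permutation test, p = 0.114). With the rat as a block the fold change was 1.03, with p still under 0.05, as it was whichever sample was left out. The ratio of means, 2.11, came under 2 without rat 4 at Nampt+ or rat 1 or 2 at Nampt++.

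Hist1h1b, an H1 gene of dividing cells (chromosome 17, 44766313 to 44766981), was at 0.463, 0.527, 0.551 and 0.485 FPKM in Nampt++ samples and at 0.402, 0.728, 0.982 and 4.11 in Nampt+ samples. Only rat 4 departed far from the rest, and the groups overlapped. The log2 fold change was 1.53 (SE 0.67, p = 0.0494 and adjusted p = 1.0 by edgeR, against 0.143 by the exact permutation test). It was 0.68 without rat 4 at Nampt+ and 1.06 with the rat as a block, and past the p threshold in neither. Of the 8 fits that left out a sample, only those without rat 1 or rat 3 at Nampt+ kept p under 0.05. The row of Hist1h1b lies within Hist1h2bo, which is listed on the other strand. Whether counting used strand is not given in the sources used here, so its reads are uncertain to that extent.

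Hist1h1d, also a somatic H1, did not pass the thresholds, with a log2 fold change of 1.25 (SE 0.59, p = 0.0639 by edgeR and 0.114 by the exact permutation test), and is named after its values were seen. Its Nampt++ samples held 0.321, 0.940, 1.16 and 1.65 FPKM and its Nampt+ samples 1.21, 1.77, 1.53 and 4.79, higher in 4 of 4 rats with rat 4 again on top. Hist1h1c, far above the other H1 genes in level, was at 283, 165, 251 and 201 FPKM in Nampt++ samples and at 223, 156, 280 and 510 in Nampt+ samples. It was lower at Nampt+ in rats 1 and 2, higher in rats 3 and 4, and its fold change of 0.36 (SE 0.27, p = 0.217 by edgeR and 0.571 by the exact permutation test) lay within the spread between rats. Hist1h1a averaged 0.277 FPKM and Hist1h1t, the testis H1, 0.0899, too few reads to compare.

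**Figure D3:**
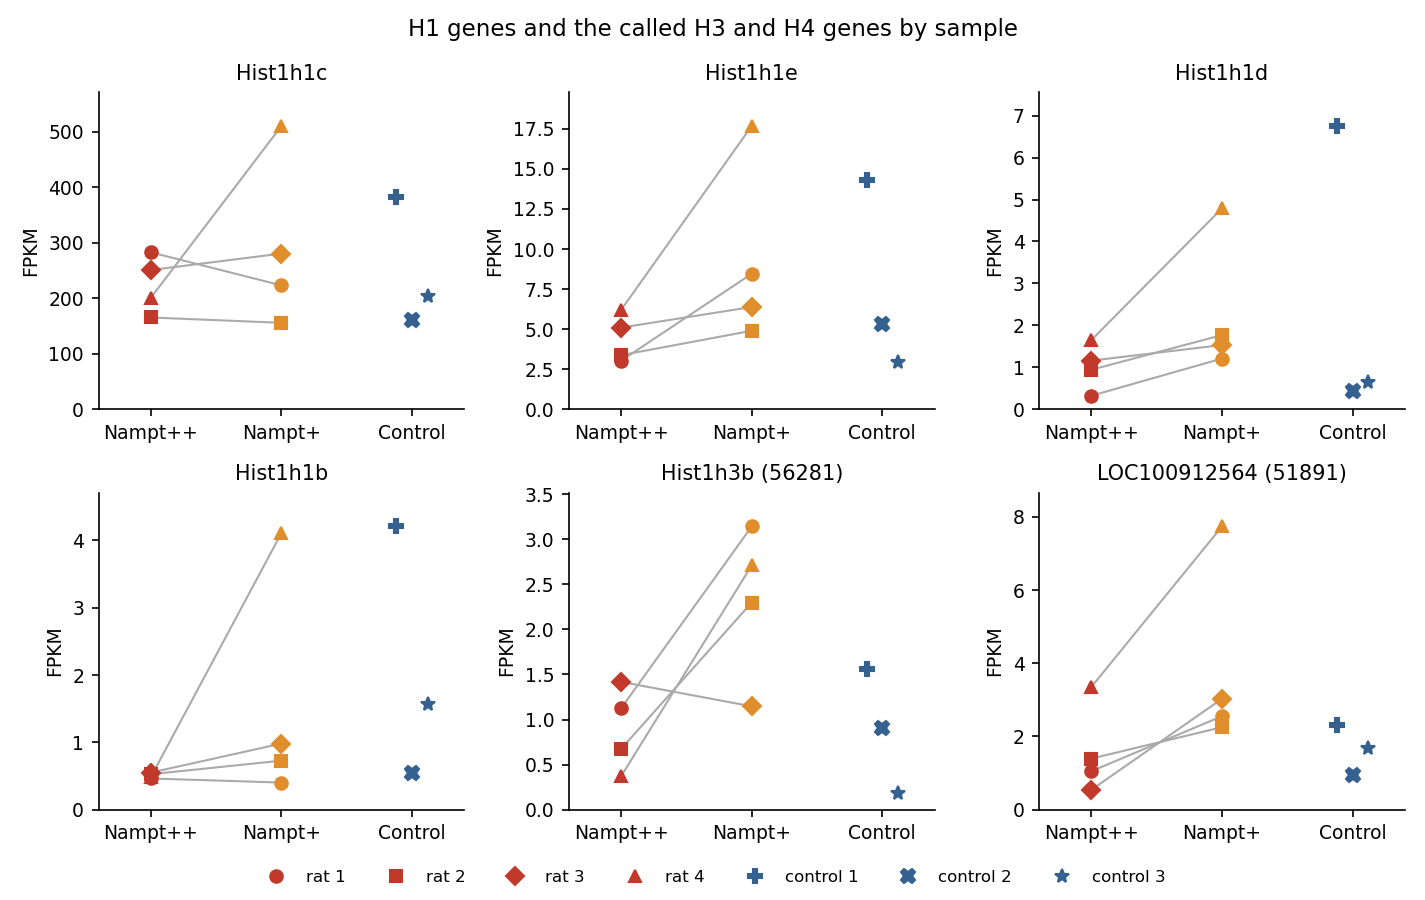
FPKM by sample of 4 H1 genes, of Hist1h3b (ENSRNOG00000056281) and of the called H4 gene (ENSRNOG00000051891), on linear axes from 0; lines join the samples of a rat and controls are single points. The Nampt+ sample of rat 4 and Control 1 are the highest samples in all 4 H1 genes (17.7 and 14.3 in Hist1h1e).

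Genes named as H2A had a median log2 fold change of 0.13, with 7 of 14 above 0 and none past the thresholds, and without Hist1h2ail1 the median was -0.0051. The most abundant members were a pair from chromosome 2. Hist2h2aa2 held 39.4, 18.9, 31.5 and 28.3 FPKM in Nampt++ samples and 30.3, 22.5, 23.6 and 33.999 in Nampt+ samples, and Hist2h2aa3 held 21.5, 16.1, 27.5 and 22.3 and then 26.9, 20.7, 19.8 and 31.2. The groups overlapped in both, with exact permutation p of 0.800 and 0.514. Hist1h2ail1, the row that RefSeq also lists as an H3, was the only member whose groups did not overlap in this comparison, where 0.745% of all genes did so, and is named after its values were seen. It was at 0, 0.326, 0.323 and 0.577 FPKM in Nampt++ samples and at 1.23, 1.79, 0.644 and 1.69 in Nampt+ samples, every one above every Nampt++ sample. The log2 fold change was 2.32 (SE 1.06, p = 0.0565 by edgeR and 0.0286 by the exact permutation test), on at most 55 reads per sample. This exact p is the smallest possible here and follows from the separation by which the gene was picked, so it adds no evidence.

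Among H2B genes 11 of 12 lay above 0, with a median of 0.49 and none past the thresholds. Hist1h2bcl1 was at 170, 178, 171 and 279 FPKM in Nampt++ samples and at 281, 254, 73.6 and 179 in Nampt+ samples. Rats 1 and 2 were higher at Nampt+ and rats 3 and 4 lower, and the fold change was 0.23 (SE 0.49, p = 0.650 by edgeR and 0.886 by the exact permutation test). Its mean FPKM was nearly level, at 199 in Nampt++ and 197 in Nampt+ samples. Hist3h2ba was at 10.2, 35.9, 12.9 and 5.09 FPKM and then at 23.7, 31.3, 12.5 and 11.9. Both samples of rat 2 stood high, and the groups overlapped (exact permutation test, p = 0.514).

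All 5 genes named as H3 lay above 0 in the fit, with a median of 0.91, or 1.00 with Hist1h2ail1 among them. Mean FPKM was lower at Nampt+ in Hist2h3c2, at 2.56 against 2.78, and higher in the other genes named as H3. The symbol Hist1h3b stands on 2 rows that code for a replication-dependent H3. The first (ENSRNOG00000056281, chromosome 17, 44839721 to 44840131) was at 1.13, 0.674, 1.42 and 0.371 FPKM in Nampt++ samples and at 3.14, 2.30, 1.15 and 2.71 in Nampt+ samples. It was higher in rats 1, 2 and 4 and lower in rat 3, and the groups overlapped only through rat 3. Its log2 fold change was 1.46 (SE 0.62, p = 0.0421, adjusted p = 1.0, edgeR), with an exact permutation p of 0.0571. With the rat as a block it was 1.52 and no longer past the p threshold, and of the 8 fits that left out a sample only those without rat 3 kept the call.

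The second Hist1h3b row (ENSRNOG00000054539), which also lies within Hist1h2bo, was at 0.736, 0.417, 0 and 0.906 FPKM in Nampt++ samples and at 0.710, 0.370, 0 and 3.37 in Nampt+ samples. Rats 1 to 3 hardly differed between their samples and rat 4 was higher, and the fold change was 1.10 (SE 1.48, p = 0.477 by edgeR and 0.800 by the exact permutation test), or -0.12 without rat 4 at Nampt+. The most abundant H3 members showed no common direction. LOC102549173 was at 2.95, 1.85, 2.16 and 4.76 FPKM in Nampt++ samples and at 3.98, 5.46, 1.45 and 2.09 in Nampt+ samples (exact permutation test, p = 0.914), and Hist2h3c2 at 3.35, 3.76, 2.17 and 1.83 and then at 2.50, 3.72, 1.21 and 2.81 (p = 0.714, exact). Rats 1 and 2 were higher in the first gene and rat 4 alone in the second, with overlap in both.

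H4 genes had a median of 0.59, with 8 of 11 above 0. Of the 5 rows named LOC100912564, 1 passed the thresholds (ENSRNOG00000051891, chromosome 17, 43770250 to 43770561). It held 1.05, 1.40, 0.542 and 3.35 FPKM in Nampt++ samples and 2.55, 2.25, 3.03 and 7.74 in Nampt+ samples. It was higher in 4 of 4 rats, though rat 4 at Nampt++ lay above 3 of the Nampt+ samples. The log2 fold change was 1.34 (SE 0.59, p = 0.0481 and adjusted p = 1.0 by edgeR, against 0.114 by the exact permutation test). It was 1.44 with the rat as a block, still past the p threshold, and 0.96 without rat 4 at Nampt+, no longer past it. The threshold was also missed without rat 2 at Nampt+ or rat 1, 2 or 3 at Nampt++. The leading row of that name (ENSRNOG00000054017) was at 63.5, 51.4, 53.4 and 50.6 FPKM and then at 43.4, 79.6, 41.8 and 68.4, which overlapped on both sides (exact permutation test, p = 0.8286). Hist1h4b was at 7.30, 8.36, 10.8 and 16.8 FPKM and then at 4.37, 8.72, 7.29 and 18.1, highest in rat 4 in both groups, with a fold change of -0.05 (SE 0.45, p = 0.913 by edgeR and 0.629 by the exact permutation test).

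No variant passed the thresholds, and the fold changes of the 6 that averaged over 10 FPKM lay between -0.30 and 0.04. Over all 8 variants the highest was 1.44. Of the low variants, RGD1562378 averaged 0.159 FPKM at Nampt++ and 0.435 at Nampt+, and H2afy2 0.136 and 0.163. H2afz held 269, 223, 247 and 334 FPKM in Nampt++ samples and 219, 158, 244 and 205 in Nampt+ samples. It was lower at Nampt+ in 4 of 4 rats, as were LOC103690002 and H2afj, while the groups overlapped in that rat 3 at Nampt+ lay above rat 2 at Nampt++. Its log2 fold change was -0.30 (SE 0.17, edgeR p = 0.113) and the difference in mean log2(FPKM + 1) was -0.38 (exact permutation test, p = 0.0571). Lower values in 4 of 4 rats were seen for 3 of the 8 variants (37.5%) and for 4.42% of all genes, and the H2A.J rows are not separate evidence. H2afy was at 140, 82.4, 101 and 119 FPKM and then at 106, 66.6, 111 and 120, lower at Nampt+ in rats 1 and 2 and close to level in rat 4.

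Nampt++ samples were next compared with Control samples, a design whose smallest possible two-sided exact p is 0.0571. Replication-dependent genes were on balance below Control, with a median log2 fold change of -0.22 and 34 of 48 below 0, against a median of 0.08 for variants and of -0.00 for all genes. The lowest variant stood at -1.54. Only Hist1h1b passed the thresholds, lower in Nampt++ samples and again under 10 FPKM, where 1.42% of all genes passed, 0.645% higher and 0.770% lower. No member had an adjusted p under 0.05 by edgeR, DESeq2 or limma, and 1, 2 and 3 members respectively had an unadjusted p under 0.05 (2.05% of all genes by edgeR). The shares of all genes by DESeq2 and limma, and with a sample left out, are not given here. Without Control 1 the median was -0.04 and no member passed, and without Control 3 it was -0.51 and 2 members passed.

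Hist1h1b was at 4.21, 0.540 and 1.57 FPKM in Control 1, 2 and 3, against the 0.463 to 0.551 of Nampt++ samples. Control 2 lay within the range of the Nampt++ samples and the others above it. The log2 fold change was -1.99 (SE 0.66, p = 0.0160 and adjusted p = 1.0 by edgeR, against 0.114 by the exact permutation test). It was -0.93 without Control 1, no longer past the p threshold. The H1 class as a whole had a median of -1.11, with 5 of 6 below 0. Control 1 was again high in Hist1h1e, at 14.3 FPKM against 5.32 and 2.92 in Control 2 and 3, in Hist1h1d, at 6.75 against 0.435 and 0.655, and in Hist1h1c, at 381 against 161 and 204.

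The Hist1h3b rows gave -0.07 (SE 0.89) for ENSRNOG00000056281 and -1.86 (SE 1.23) for ENSRNOG00000054539, with exact permutation p of 0.914 and 0.229. Their Control samples held 1.56, 0.904 and 0.189 FPKM and 2.69, 1.86 and 0.375. Groups did not overlap in 2 members (1.75% of all genes), both below Control and both named after their values were seen. Hist1h2ail1 held 1.91, 0.977 and 0.853 FPKM in Control samples, above every Nampt++ sample, and an H2B row typed as a pseudogene, AABR07027753 (ENSRNOG00000047776), held 1.56, 1.37 and 1.97 against 0.649, 0.492, 0.493 and 1.29. Among the leading genes, fold changes were smaller than their standard errors for Hist1h1c (-0.17, SE 0.33), Hist2h2aa2 (0.10, SE 0.31), Hist1h2bcl1 (0.04, SE 0.26) and H2afz (0.12, SE 0.19). Of the leading H3 and H4 genes, LOC102549173 changed direction with the sample left out. The difference in mean log2(FPKM + 1) stayed above 0 in Hist1h4b (0.29 to 0.66), Hist2h3c2 (0.13 to 0.38) and ENSRNOG00000054017 (0.053 to 0.25), against the direction of their class.

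Between Nampt+ and Control samples no member passed the thresholds, where 1.17% of all genes did, and no groups of a member were separate, where 1.04% of all genes were. No member had an unadjusted p under 0.05 by edgeR (1.45% of all genes had), whereas 1 had by DESeq2 and 2 by limma, and none an adjusted one. For DESeq2, limma and the fits with a sample left out, the share of all genes is not given here. The median was 0.17 over the replication-dependent class, with 30 of 48 above 0, and -0.06 over the variants. Its sign depended on single samples: the median was 0.50 without Control 1, -0.03 without Control 3 and -0.11 without rat 2 at Nampt+. Without Control 1 or Control 3 a single member passed, Hist1h1d and Hist1h2bl respectively. Hist1h3b (ENSRNOG00000056281) had a log2 fold change of 1.39 (SE 0.83, exact permutation p = 0.114) and its other row -0.76 (SE 1.35, exact p = 0.571). The H4 row ENSRNOG00000051891 had 1.22 (SE 0.56, p = 0.0589 by edgeR and 0.114 by the exact permutation test), with 2.30, 0.948 and 1.70 FPKM in Control samples.

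No gene of the machinery that makes and handles histones passed. Of 20 tested genes for the 3′ processing and turnover of histone mRNA none passed the thresholds in any of the 3 comparisons, and their median fold changes lay between -0.08 and -0.01. Slbp, whose product binds the stem-loop of replication-dependent mRNAs, was at 14.4 ± 1.04 FPKM (SD, n = 4) at Nampt++, 11.9 ± 3.89 (SD, n = 4) at Nampt+ and 14.4 ± 2.08 (SD, n = 3) in healthy rats. Npat, which switches on the clusters in S phase, held 2.21 ± 0.800 (SD, n = 4), 2.14 ± 0.759 (SD, n = 4) and 2.55 ± 0.782 (SD, n = 3). Of 21 histone chaperone genes none passed either, with medians between -0.03 and 0.00.

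Of 25 genes of proliferation none passed in any comparison, with medians between 0.01 and 0.05. Mki67, a marker of cycling cells, was between 0.863 and 1.79 FPKM in all samples, and Top2a, which is made from S phase to mitosis, between 0.262 and 1.51. Top2a was lower at Nampt+ than at Nampt++ by -0.18 (SE 0.36, adjusted p = 1.0, edgeR) and Mki67 higher by 0.35 (SE 0.29, adjusted p = 1.0). Among histone genes that the naming rule leaves out, 5 were tested and none passed. H3f3b was at 1107 ± 198 FPKM (SD, n = 4) at Nampt++, 992 ± 49.6 (SD, n = 4) at Nampt+ and 897 ± 162 (SD, n = 3) in healthy rats.

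Haspin and Hinfp did not pass in any comparison. Hinfp averaged 10.01 FPKM at Nampt++, 10.04 at Nampt+ and 10.15 in Control samples. Haspin overlaps Itgae on the other strand. Whether counting used strand is not given in the sources used here, so their reads cannot be told apart. Haspin ranged from 8.08 to 30.0 FPKM, highest in Control 3.

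Many replication-dependent genes were highest in rat 4 at Nampt+ or in Control 1. Of the 48 genes 17 were highest in the former and 8 in the latter of all 11 samples, beside 7 in rat 4 at Nampt++, and none was lowest in the first 2 of these. The 40 replication-dependent genes that averaged under 5 FPKM summed to 91.2 and 82.2 FPKM in them, and to between 37.7 and 68.7 in the other samples. The 5 basophil and mast cell genes summed to 63.9 and 36.4 FPKM in the same samples and to between 7.91 and 28.7 in the others. Of these 5, the basophil proteases Mcpt8l2 and Mcpt8l3 and the IgE receptor gene Ms4a2 were higher at Nampt+ than at Nampt++ status by the thresholds (log2 fold change 1.28, 1.37 and 1.896). Mcpt8l2 and Mcpt8l3 made up most of the sums. In the other genes of the list rat 3 at Nampt+ lay above Control 1, at 5.51 against 2.71 FPKM in Fcer1a, 2.64 against 1.84 in Ms4a2 and 1.38 against 0.522 in Cpa3, and rat 3 was the rat in which most replication-dependent genes were lower at Nampt+. The part of basophils in the histone values was not tested.

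The other cell type lists had no gene past the thresholds between Nampt+ and Nampt++ samples. Their medians were 0.64 over 12 erythroid genes, 0.21 over 4 of B cells, 0.16 over 5 of platelets, 0.13 over 5 of NK cells, 0.02 over 6 of T cells, -0.19 over 5 of plasma cells, -0.34 over 9 of neutrophils and -0.51 over 5 of monocytes. Against Control, Ppbp of platelets and Mcpt8l2 were lower in Nampt++ samples, and no other gene of these lists passed in either comparison.

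The H2B genes of the small cluster on chromosome 10 had other samples at the top. Hist3h2ba was highest at 35.9 and 31.3 FPKM in the samples of rat 2, then at 23.7 in rat 1 at Nampt+, and lowest at 10.2 and 5.09 in rats 1 and 4 at Nampt++, with 17.8, 19.5 and 12.5 in Control samples. Its neighbour Hist3h2bb, named after its values were seen, was also highest in rat 2, at 4.16 and 7.19 FPKM, and lowest at 0.695 in rat 4 at Nampt++. The haemoglobin genes took 37.3% and 42.8% of the counts in the samples of rat 2, 25.9% in rat 1 at Nampt+, and 6.84% and 7.80% in rats 1 and 4 at Nampt++. They took 30.1%, 30.9% and 16.2% in Control 1, 2 and 3, 20.2% and 18.4% in the samples of rat 3, and 14.8% in rat 4 at Nampt+. The orders were not the same, since Control 1 and 2 lay above rat 1 at Nampt+ in haemoglobin share and below it in Hist3h2ba.

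Hist1h1c was near its lowest in rat 2, at 165 and 156 FPKM. Group differences in Hist3h2ba were within the spread in each comparison (log2 fold changes 0.50, -0.04 and 0.45, SE between 0.61 and 0.74, edgeR), and the part of residual red cell RNA in its level was not tested.

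**Figure D4:**
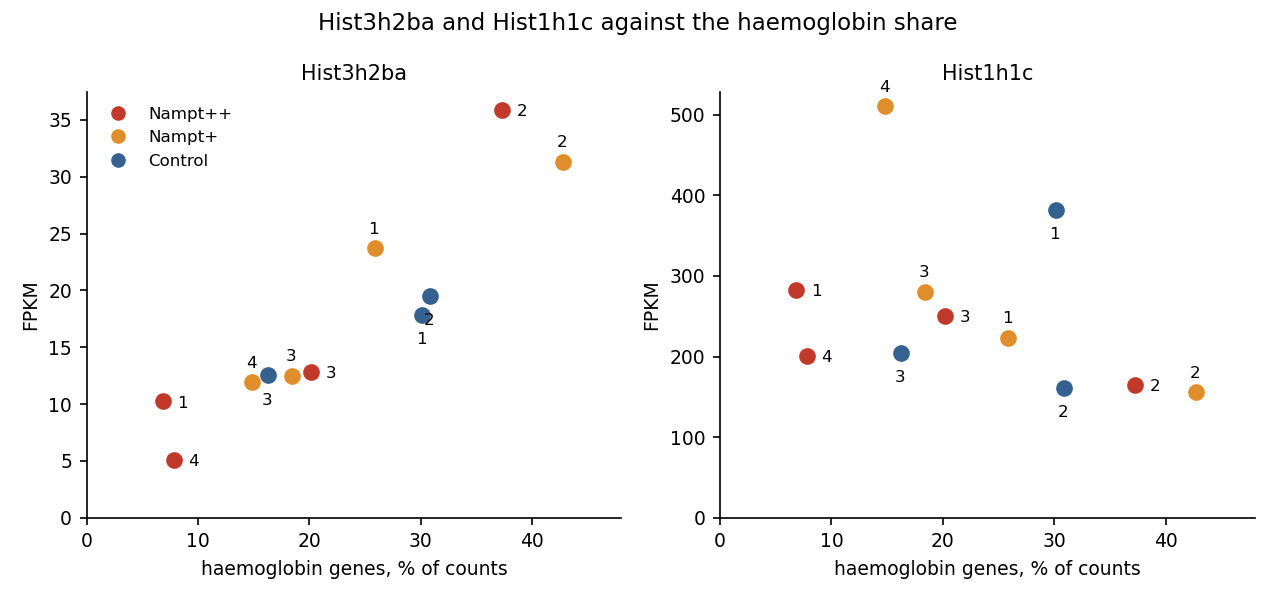
FPKM of Hist3h2ba (left) and Hist1h1c (right) against the share of counts taken by the 11 haemoglobin genes, 1 point per sample, coloured by group and numbered by rat or control. Hist3h2ba runs from 5.09 FPKM at 7.80% to 35.9 at 37.3%, while the highest Hist1h1c sample, 510 FPKM, lies at 14.8%.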

How the data were processed

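Gene counts and FPKM as deposited were used, with no normalization added by the authors to the counts. Per the labels and methods, the authors trimmed reads with cutadapt 1.9, aligned them with HISAT2 2.0.4 and assembled transcripts with StringTie 1.3.4; the genome build, and how shared reads and strand were counted, are not given in the sources used here. FPKM listed at 0.0001 was read as 0. Genes with at least 50 counts over the 11 samples were fitted with edgeR 4.0.16 (TMM, quasi-likelihood test; R 4.3.3), each comparison on its own samples. Genes past the thresholds had an unadjusted p under 0.05 and mean FPKM more than 2 times, or less than 0.5 times, that of the other group. Single genes were compared on log2(FPKM + 1) by two-sided exact permutation tests (scipy 1.17.1), whose smallest p is 0.0286 for 4 against 4 samples. For Nampt+ against Nampt++ these tests took the samples as independent and did not use their pairing by rat. Alternatives were DESeq2 1.42.0, limma 3.58.1 on log2 FPKM, other filters and scalings, the fit with a replicate block, and each sample left out.

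Same-numbered Nampt++ and Nampt+ samples are the same rat per the labels, and their deviations from the group means correlated at -0.27, -0.24, 0.24 and 0.05. Control samples share only a number with them. Members and lists were chosen with earlier results of these data known. Named genes were the members past the thresholds, Hist1h3b, the 2 most abundant of each class, those nearest to the count minimum, list genes past the thresholds, and Slbp, Npat, H3f3b, Mki67 and Top2a.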

Additional observations from a re-analysis of the deposited data

Results flagged for a closer look

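In 3 of the 32 groups of 4 samples looked at, a single sample lay far from the others by Dixon's test, which chance alone does in about 1 of 20 groups of normally distributed values. Hist1h1b and ENSRNOG00000051891 below were named because they passed the thresholds in these samples, so that rate is no fair measure for them. Hist1h2bcl1 was at 279 FPKM in the Nampt++ sample of rat 4, with the other Nampt++ samples between 170 and 178. Hist1h1b was at 4.11 FPKM in the Nampt+ sample of rat 4, with the others between 0.402 and 0.982. LOC100912564 (ENSRNOG00000051891) was at 7.74 FPKM in the same sample, with the others between 2.25 and 3.03.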

How the results depend on the processing

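The median log2 fold changes of both classes were added as results after the data were seen. The share of all genes past the thresholds is given for the main fits alone. Counts from other settings, or with a sample left out, cannot be set against that share. For Nampt+ against Nampt++, 4 members passed the thresholds, and 7 did with DESeq2, 7 with limma on log2(FPKM + 1) and 7 on log2(FPKM + 0.1). Those by limma included neither Hist1h1e nor Hist1h1b, and held LOC102548682 as lower. The replication-dependent median was 0.22 with limma on log2(FPKM + 1). For Nampt++ against Control, 2 members passed with a mean FPKM of at least 1, 2 with DESeq2, and 3 and 3 with limma. For Nampt+ against Control these counts were 1, 1, 2 and 2. With the replicate block the count for Nampt+ against Nampt++ was 3, namely Hist1h1e, Hist1h1d and the H4 row ENSRNOG00000051891. Control rats share only a number with the CIA rats, so the block is no pairing there, where it gave counts of 0 and 0 and a replication-dependent median of -0.45 for Nampt++ against Control. Hist1h3b (ENSRNOG00000056281) in Nampt++ against Control turned to 0.044 and 0.21 with limma, and to 0.53 with the replicate block by number alone. The median over genes named as H2A in Nampt+ against Nampt++ turned to -0.0051 with Hist1h2ail1 counted as H3, chosen after seeing the data. The cause was not tested. Differences near 0 also turned: LOC102549173 in Nampt++ against Control to 0.0031 on log2(FPKM + 0.1), and on log2(CPM + 1) Hist1h3b (ENSRNOG00000056281) there to -0.0052 and Hist2h2aa3 in Nampt+ against Control to 0.023.

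With each sample left out, counts ranged from 0 to 7, from 0 to 2 and from 0 to 1 over the 3 comparisons, and replication-dependent medians from 0.32 to 0.77, from -0.51 to -0.037 and from -0.11 to 0.50. Fitted changes that turned ranged from -0.12 to 1.53 for Hist1h3b (ENSRNOG00000054539) in Nampt+ against Nampt++ and from -0.58 to 0.46 for ENSRNOG00000056281 in Nampt++ against Control. Differences in mean log2(FPKM + 1) that turned are given by comparison. In Nampt+ against Nampt++ they ranged from -0.044 to 0.52 for Hist1h1c, -0.26 to 0.080 for Hist2h2aa2, -0.38 to 0.26 for Hist1h2bcl1, -0.17 to 0.29 for LOC102549173, -0.26 to 0.11 for Hist2h3c2, -0.12 to 0.18 for LOC100912564 (ENSRNOG00000054017), -0.58 to 0.031 for Hist1h4b, -0.27 to 0.049 for H2afy and -0.15 to 0.56 for Hist1h3b (ENSRNOG00000054539). In Nampt++ against Control they ranged from -0.34 to 0.28 for Hist1h1c, -0.90 to 0.082 for Hist1h1e, -0.080 to 0.16 for Hist1h2bcl1, -0.82 to 0.046 for Hist3h2ba, -0.20 to 0.31 for LOC102549173, -0.0057 to 0.39 for H2afz, -0.25 to 0.30 for Hist1h3b (ENSRNOG00000056281) and -0.40 to 0.10 for LOC100912564 (ENSRNOG00000051891). In Nampt+ against Control they ranged from -0.12 to 0.55 for Hist1h1c, -0.073 to 0.91 for Hist1h1e, -0.020 to 0.19 for Hist2h2aa2, -0.13 to 0.077 for Hist2h2aa3, -0.29 to 0.35 for Hist1h2bcl1, -0.093 to 0.35 for Hist3h2ba, -0.17 to 0.37 for LOC102549173, -0.00028 to 0.36 for Hist2h3c2, -0.066 to 0.54 for Hist1h4b, -0.38 to 0.0094 for H2afz, -0.089 to 0.20 for H2afy and -0.72 to 0.16 for Hist1h1b.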
